A study of Homo sapiens with 6 samples.

Results

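Cassette exons are exons that some transcripts of a gene include and others skip, and the exons described here are those that lie directly behind intronic sequence rich in C. They were taken from GENCODE release 44 on GRCh38 by a rule on sequence alone: the exon is longer than 30 bases, some transcripts join it to a flanking exon on each side while others join those flanks directly, and the 50 intronic bases just upstream on the gene strand hold at least 40% C. Of 47590 annotated cassette exons that met the length and intron conditions, 4205 (8.84%) had such C-rich upstream sequence and 19204 had under 20% C, the C-poor set used for comparison. The remaining 24181 exons fell between these limits.

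RNA was sequenced from K562 cells, a human erythroleukemia line, to ask how loss of PCBP1 alters exon use. The shPCBP1 group received lentiviral particles that carried a pLKO.1 plasmid with a short hairpin RNA (shRNA) against PCBP1, and the shCtrl group received the same vector with a hairpin against luciferase. Both groups were exposed to virus overnight with polybrene and then kept in puromycin for 4 days before poly-A RNA was collected. Each group held 3 libraries and rested on a single hairpin, so effects of the hairpin itself and of PCBP1 loss cannot be told apart. The labels do not say whether the 3 libraries of a group came from separate cultures, so p-values measure only the spread between these libraries, which may be technical.

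PCBP1 belongs to the poly(C)-binding proteins, which contact short stretches of C in single-stranded RNA through KH domains. At the end of an intron, the spliceosome reads a pyrimidine tract, which is bound by U2AF, followed by an AG at the 3′ splice site. In many introns this tract is mostly T (U in the RNA), but in a subset C predominates, and PCBPs have been described to bind such tracts and to favour use of the exon behind them. Percent spliced in (PSI) is here inclusion TPM over inclusion plus skipping TPM, where TPM is the authors' length-scaled transcript abundance. Only transcripts that join the exon to flanks that others join directly count as inclusion. Transcripts with other flanks or another version of the exon enter neither term, so PSI is not a share of all transcripts of the gene.

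The upstream windows of 12 exons described below are shown first, because they are the sequence by which the exons were chosen. Each is the last 50 bases of the intron on GRCh38, written 5′ to 3′ on the gene strand, and capitals mark runs of at least 3 C. In GOLGA2, ATP13A2, MFSD10, METTL26, YDJC and BCAP29 the window overlaps an exon annotated in another transcript of the gene. The first 4 precede exons whose PSI fell by the limma test, BCAP29 precedes the exon whose PSI rose, and the others precede exons with large differences between groups that did not overlap.
GOLGA2, chr9:128267275-128267324, minus strand: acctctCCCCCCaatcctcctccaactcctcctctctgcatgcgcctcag
MINK1, chr17:4892352-4892401, plus strand: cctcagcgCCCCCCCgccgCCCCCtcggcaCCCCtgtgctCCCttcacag
ATP13A2, chr1:16996497-16996546, minus strand: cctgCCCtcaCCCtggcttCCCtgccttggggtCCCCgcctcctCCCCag
HAUS5, chr19:35618352-35618401, plus strand: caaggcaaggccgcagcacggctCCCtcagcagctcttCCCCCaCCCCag
CEP131, chr17:81192844-81192893, minus strand: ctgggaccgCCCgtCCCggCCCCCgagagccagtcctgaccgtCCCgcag
HDAC10, chr22:50250524-50250573, minus strand: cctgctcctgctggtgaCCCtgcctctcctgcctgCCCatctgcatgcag
MFSD10, chr4:2931664-2931713, minus strand: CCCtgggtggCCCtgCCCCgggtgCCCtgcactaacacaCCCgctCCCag
METTL26, chr16:635064-635113, minus strand: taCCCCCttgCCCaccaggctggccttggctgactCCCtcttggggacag
MATK, chr19:3785287-3785336, minus strand: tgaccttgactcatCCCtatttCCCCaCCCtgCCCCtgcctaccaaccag
ERCC1, chr19:45414035-45414084, minus strand: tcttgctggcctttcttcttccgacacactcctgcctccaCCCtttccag
YDJC, chr22:21629188-21629237, minus strand: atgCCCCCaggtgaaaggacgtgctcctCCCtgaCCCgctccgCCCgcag
BCAP29, chr7:107580596-107580645, plus strand: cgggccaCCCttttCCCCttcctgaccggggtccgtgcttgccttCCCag
These windows hold between 1 and 6 runs of C. The MINK1 window is the richest of them at 60% C with a run of 7, and the METTL26 window stands at the limit of the rule with 40% C. The ERCC1 and HDAC10 windows hold 44% C each with 1 and 2 runs, and differ in the other bases, with 34% T and 12% G in ERCC1 and 26% T and 22% G in HDAC10.

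Total estimated counts per library ranged from 83033656 to 140522444 in shCtrl and from 67066747 to 85121124 in shPCBP1, so the knockdown libraries were on average the shallower ones. The cells carried the markers of their line: the erythroid factor GATA1 stood between 202.6 and 217.4 TPM, and the fetal globin gene HBG1 between 7260.9 and 8687.1 TPM. Among markers of other cell types, the T cell gene CD3E and the liver gene ALB were at or below 0.129 TPM, the fibroblast gene COL1A1 was at 4.99 to 6.61 TPM in shCtrl and 3.44 to 4.78 in shPCBP1, and the epithelial gene EPCAM at 36.4 to 38.1 and 26.7 to 36.4. Some markers moved with the knockdown: COL1A1 fell by 0.31 and EPCAM by 0.19 on the log2 scale (DESeq2 adjusted p 0.0179 and 0.0349), while the transferrin receptor gene TFRC rose by 0.35, LMO2 by 0.28, TAL1 by 0.19 and HBG1 by 0.16 (DESeq2 adjusted p 8.17e-13, 9.02e-08, 2.06e-05 and 0.00359). The part of these in the exon values was not tested.

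PCBP1 itself was checked first. The 3 shCtrl libraries had 40567, 38411 and 37800 normalized counts of PCBP1, and the 3 shPCBP1 libraries 6624, 7276 and 7221. The groups did not overlap, and PCBP1 fell to 18.1% of its shCtrl level (log2 fold change -2.47, SE 0.0439, DESeq2 Wald test).

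Of the 4205 exons with C-rich upstream sequence, 3022 in 2120 genes had a mean estimated count of at least 10 for inclusion or skipping and were tested, among 33242 cassette exons tested in all. Their upstream windows were largely distinct, with 2837 different windows. Inclusion tilted toward skipping in shPCBP1. In 313 of the 3022 exons (10.4%, in 283 genes) all 3 shPCBP1 PSI values lay below all 3 shCtrl values with a mean difference over 5 percentage points, against 4.12% of all exons tested. In the other direction 40 exons (1.32%) were higher by the same rule, against 2.31% of all exons tested, so that 88.7% of the C-rich exons that separated the groups were lower. Of 13808 C-poor exons, 341 were lower (2.47%) and 358 higher (2.59%). In 1287 of the C-rich exons the window overlapped an annotated exon of another transcript of the gene. Of these 11.8% were lower, against 9.28% of the 1735 with a clear window. For C-poor exons the shares were 2.69% of 3377 and 2.4% of 10431. These are counts with no test, since the exons are not replicates of a condition. As the libraries were bulk RNA, fewer cells of a kind and less RNA per cell cannot be told apart.

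The limma test on the log2 ratio of inclusion to skipping TPM called few exons with 3 libraries a group. After Benjamini-Hochberg adjustment over all exons, 4 C-rich exons fell (0.0271% of all exons tested fell) and 1 rose (0.00902% of all exons rose), while 1 C-poor exon fell and 1 rose. At an unadjusted p under 0.05, 526 C-rich exons (17.4%) passed, against 10.3% of all exons and 8.44% of C-poor exons. Of the 526, 422 were lower in mean PSI and 66 higher, and the C-poor exons split into 515 lower and 547 higher. The rest of both sets had a mean PSI under 5% or of at least 95%. In those the mean PSI did not differ or was not defined in a group, so the shares that passed take in exons with no measured change in PSI. The number of adjusted calls moved with the settings: with a pseudocount of 1 TPM in place of 0.1 TPM, 51 C-rich exons fell and 0 rose, against 8 and 7 C-poor exons. Under edgeR's quasi-likelihood test on estimated counts, and in each fit that left out a library, 0 C-rich exons were called. In edgeR 282 of 3022 C-rich exons had an unadjusted p under 0.05, as did 526 of 13808 C-poor exons.

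The share of exons with lower PSI was larger in bins of higher C content above 20%, as the plot by C content shows. It was 2.68% of 2347 exons under 10% C, 2.43% from 10% to 20%, 3.40% from 20% to 30% and 6.10% from 30% to 40%. It then reached 10.0% of 2449 exons from 40% to 50%, 11.3% of 522 from 50% to 60%, and 8 of 51 exons (15.7%) at 60% or more. The share with higher PSI stayed between 0 and 2.66% over the same bins. Around the limit of the rule the share lower was 6.48% at 36% C and 6.95% at 38%, just outside it, and 7.40% at 40% and 9.63% at 42%, just inside.

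**Figure D1:**
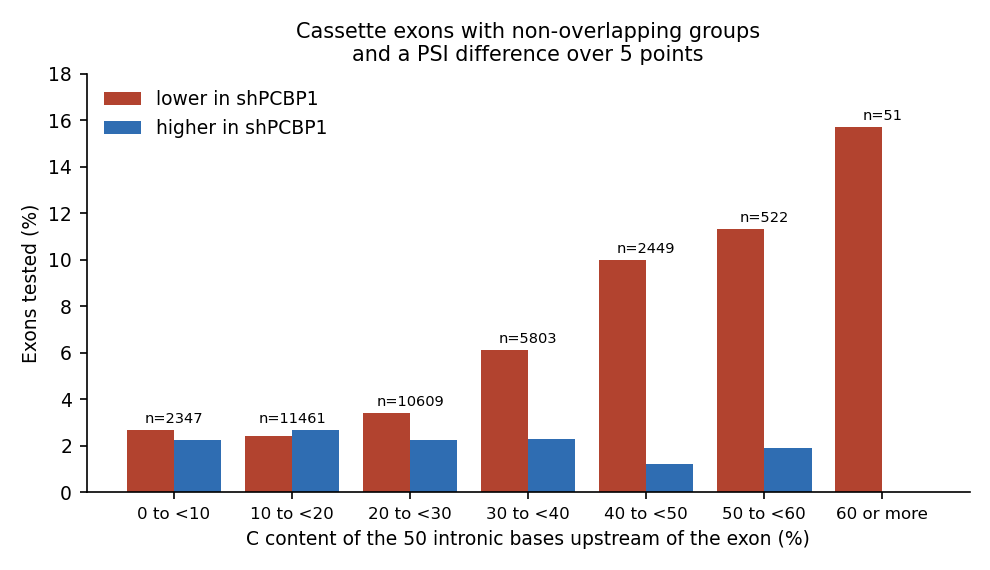
Bars give the percent of cassette exons tested whose 3 shPCBP1 PSI values all lie below (red) or above (blue) the 3 shCtrl values with a mean difference over 5 points, by C content of the 50 intronic bases upstream; n is the number of exons tested in each bin. The red bars go from 2.68% in the lowest bin to 15.7% in the highest, which holds 51 exons, and the blue bars stay at or below 2.66%.

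Much of the C-rich set is nearly always or nearly never included, so the exons with a mean PSI between 5% and 95%, called variable here, were also described. There were 1553 variable C-rich exons, and their median PSI was 69.4%, 70.4% and 68.5% in the shCtrl libraries and 62.4%, 64.5% and 64.1% in the shPCBP1 libraries. The 3 shPCBP1 medians were below the 3 shCtrl medians. For variable C-poor exons the medians were 51.5%, 53.1% and 52.0% in shCtrl against 53.0%, 53.2% and 51.4% in shPCBP1, and the groups overlapped. The median PSI difference, shPCBP1 minus shCtrl, was -3.27 points over the variable C-rich exons (quartiles -10.58 and 2.40), 0.13 points over 6156 variable C-poor exons (quartiles -4.34 and 4.91) and -0.51 points over all 15389 variable exons. A mean PSI lower by over 10 points was seen in 26.3% of the C-rich and 14% of the C-poor exons, and a mean higher by over 10 points in 13.7% and 14.5%.

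**Figure D2:**
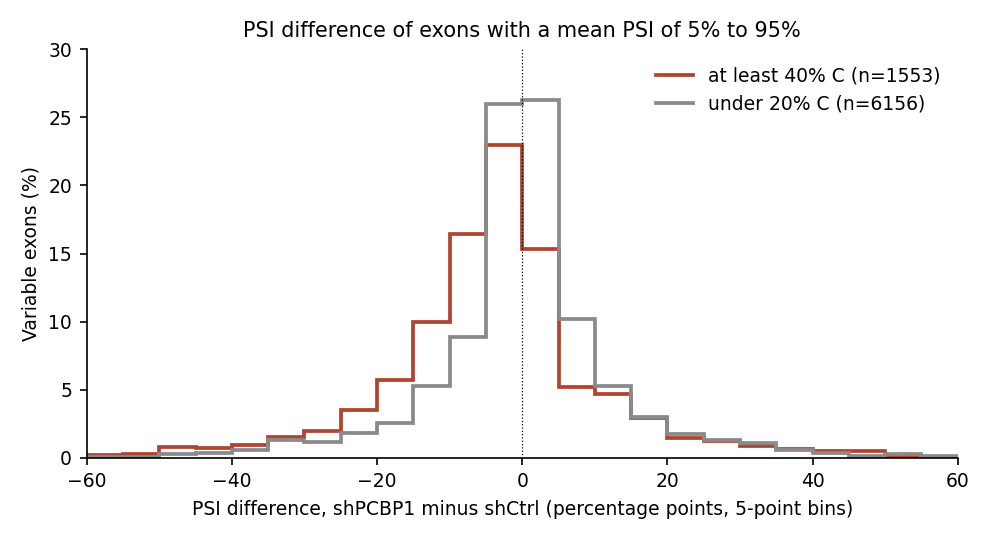
Distribution of the PSI difference (shPCBP1 minus shCtrl, percentage points, 5-point bins) among variable exons with at least 40% C upstream (red, n = 1553) and under 20% C (grey, n = 6156); the vertical axis is the percent of each set, and 22 and 55 exons beyond 60 points are not drawn. Between -10 and -5 points lie 16.4% of the red and 8.90% of the grey set, and between 0 and 5 points 15.3% and 26.3%.

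The counts were also taken by level of PSI. The levels are means over the 6 libraries, which a difference between groups itself moves, so the exons were not matched on their shCtrl PSI. Among exons with a mean PSI of 20% to 50%, 17.7% of C-rich and 6.33% of C-poor exons were lower, and 4.10% and 6.78% were higher. At 50% to 80%, the shares lower were 24.2% and 6.08%, and at 80% to 95% they were 20.9% and 4.75%. Among exons with a mean PSI of 5% to 20%, 10.5% of C-rich exons were lower against 3.61% of C-poor exons.

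The counts were also taken by total TPM of the exon's forms. The share of C-rich exons that were lower was 2.08% under 1 TPM, 9.87% from 1 to 5 TPM, 15.5% from 5 to 20 TPM and 13.9% at 20 TPM and above. For C-poor exons the shares in the same order were 1.61%, 3.41%, 3.14% and 1.81%. At 20 TPM and above 0.478% of C-rich and 1.98% of C-poor exons were higher. Inclusion was listed at 0 for 14.1% to 16.2% of C-rich exons in shCtrl libraries and 16.7% to 17.1% in shPCBP1 libraries, and skipping for 17.2% to 21.3% and 19.1% to 20%. Such zeros can be failed estimates, and the part that depth plays in them was not tested.

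The rule for lower PSI itself requires less inclusion, more skipping or both, so the forms are given as a description. In the 313 lower C-rich exons, the median change in skipping TPM was 0.68 and that in inclusion TPM -0.45 on the log2(TPM + 0.1) scale. In the 341 lower C-poor exons these were 0.53 and -0.31. Skipping TPM was higher in shPCBP1 in 283 of the 313 and inclusion TPM lower in 265. Their median PSI was 83.4% in shCtrl against 65.2% in shPCBP1, with differences from -75.32 to -5.03 points, and 71 of the 313 differed by over 20 points.

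Several features of sequence went with the share of C-rich exons that were lower, and each is given as a description. The first was the number of C runs. Among windows with 5 or more runs of at least 3 C, 13.4% of 276 exons were lower and 0.725% higher. The variable ones had a median difference of -5.12 points. With 0 or 1 run 9.28% of 334 exons were lower and 2.1% higher, and the median was -1.34 points. The share lower was smallest at 2 runs, at 8.18% of 807 exons, so it did not climb at each step. Where the longest run was 6 C or more, 14.2% of 296 exons were lower, against 8.22% of 657 where it was 3 or fewer. The share higher was also larger with long runs, at 2.7% against 0.609%.

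The second was the place of the C within the window. With at least 40% C in both 25-base parts of the window, 11.4% of 1594 exons were lower, with a median difference of -3.51 points over the variable ones. When the 25 bases next to the exon held at least 40% C and the farther 25 bases less, 11.0% of 943 exons were lower with a median difference of -4.08 points. In the reverse arrangement 5.57% of 485 exons were lower with a median of -1.46 points. The plot of C content by distance shows the same: in the 223 lower exons with at least 200 intronic bases upstream, C content was 52.7% at 11 to 20 bases before the exon, against 48.7% in the 1025 variable C-rich exons that did not separate the groups. At 31 to 40 bases before the exon the order turned, with 41.7% and 43.7%, and beyond 50 bases neither set passed 32.5%.

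**Figure D3:**
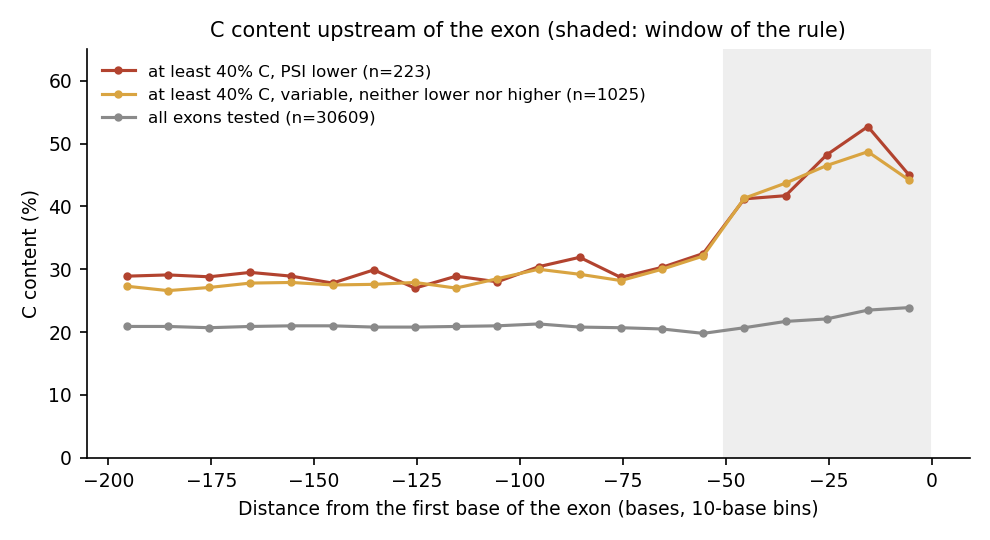
C content (percent of bases, 10-base bins) against distance upstream of the first exon base for C-rich exons with lower PSI (red, n = 223), variable C-rich exons that were neither lower nor higher (yellow, n = 1025) and all cassette exons tested (grey, n = 30609), all with at least 200 intronic bases upstream; the shaded area is the 50-base window the rule used. The red and yellow lines part most at 11 to 20 bases, at 52.7% and 48.7%, and the grey line stays between 19.8% and 23.9%.

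The third was the rest of the base composition, in which C-rich windows are not uniform. G content moved with the result: 8.97% of C-rich exons with under 20% G in the window were lower, 12% from 20% to 30% G and 14.6% of 198 exons at 30% G or more. G also moved with it where C was moderate, from 3.14% to 5.04% and 7.70% in exons with 20% to under 40% C. In C-poor exons the shares were 2.39%, 2.49% and 3.58%. T content moved the other way, with 11.4% of C-rich exons lower under 30% T, 6.89% from 30% to 40%, and 4 of 81 exons (4.94%) at 40% or more. At each level of G the C-rich share exceeded the C-poor share. How far C, G and T content each account for the counts was not tested.

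**Figure D4:**
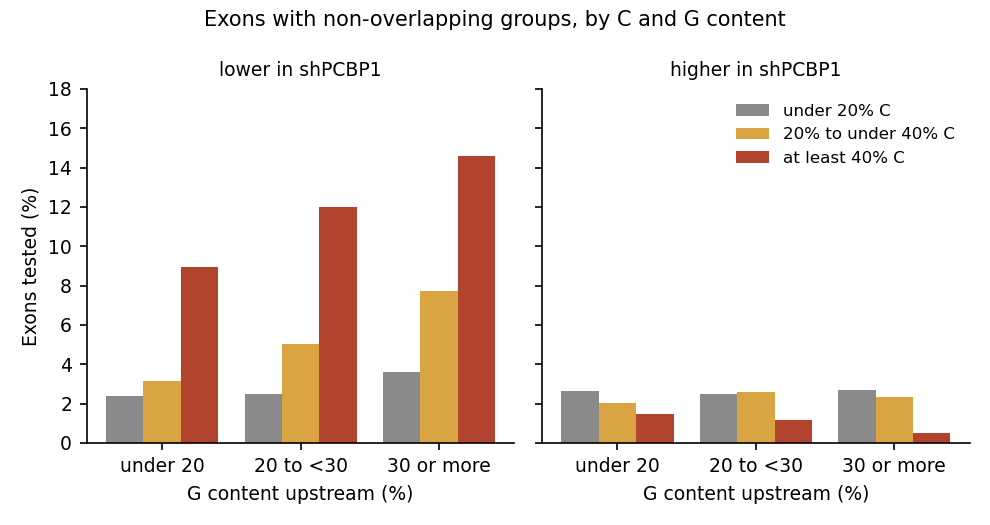
Percent of cassette exons tested that were lower (left) or higher (right) in shPCBP1 by the rule of non-overlapping groups and a difference over 5 points, by G content of the upstream window (horizontal axis) and C content (colors). In the left panel the red bars for at least 40% C rise from 8.97% to 14.6% with G content and stand above the grey bars for under 20% C, at 2.39% to 3.58%; in the right panel the red bars are at 1.49%, 1.18% and 0.505%.

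The C-rich neighbourhood often extended past the exon. The 50 bases downstream held 30.0% C on average in the lower exons (SD 11.3), 26.3% in variable C-rich exons that did not separate the groups (SD 10.6) and 19.6% over all exons tested. With at least 40% C downstream as well as upstream, 17.0% of 417 exons were lower and 0.959% higher, with a median difference of -5.12 points over the variable ones. With under 20% C downstream, 6.84% of 833 were lower. The 121 C-poor exons with at least 40% C downstream included 6 lower (4.96%) and 4 higher.

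The lower C-rich exons sat behind shorter introns. The shortest upstream intron had a median of 457 bases in the lower exons, 854 in the variable C-rich exons that did not separate the groups and 2096 over all exons tested. Among C-rich exons 14.4% of 840 with an upstream intron under 300 bases were lower and 7.54% of 650 with one of at least 3000 bases. In C-poor exons the shares were 2.95% and 2.64%. Exon length had a median of 122 bases in lower C-rich exons and 116 over all exons.

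By place in the transcript, 247 of the 313 lower exons (78.9%) lay in coding sequence of their most abundant inclusion transcript, 15 in a 5′ UTR, 8 in a 3′ UTR, and 43 in transcripts with no coding sequence. Over all C-rich exons tested the coding share was 72.8%. A length that is a multiple of 3, which keeps the reading frame when the exon is skipped, was found in 134 of the 313 (42.8%), and in 40.1% of all exons. Of the C-rich exons that keep the frame 10.5% were lower and 1.25% higher, and of those that do not 10.3% and 1.38%.

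Host genes were compared at the level of the whole gene with DESeq2. Of the 283 genes with a lower C-rich exon, 115 (40.6%) fell and 53 (18.7%) rose at an adjusted p under 0.05, where 13.5% of all genes tested fell and 17.7% rose. Among the genes with a higher C-rich exon, 14 of 36 fell (38.9%) and 5 rose (13.9%). Among genes with any C-rich exon tested, 545 of 1995 fell (27.3%) and 358 rose (17.9%). Among genes with a lower C-poor exon, 41 of 314 fell and 71 rose. The median log2 fold change of the 283 genes was -0.09, and the part of gene level in the exon values was not tested.

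The kinds were also set side by side within genes. In 279 genes that held variable exons of both kinds, the 344 C-rich exons had a median difference of -2.33 points and the 443 C-poor exons -0.68 points. By the rule of non-overlapping groups 16.3% of these C-rich exons were lower and 1.74% higher, against 6.77% and 4.74% of the C-poor ones. Averaged per gene, the C-rich exons had the lower difference in 149 of 279 genes (53.4%), with a median of -0.80 points between the kinds. Exons of one gene are often measured on the same transcripts, so their values are not independent of each other.

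The 4 C-rich exons that fell by limma lie in genes of the Golgi, kinase signalling, the lysosome and the spindle. GOLGA2 encodes GM130, a matrix protein of the cis-Golgi. Its 81-base exon (chr9:128267194-128267274, minus strand, exon 7 of 26, coding) had a PSI of 57.1%, 59.5% and 55.8% in shCtrl against 23.4%, 22.9% and 21.7% in shPCBP1. The groups were far apart, with means of 57.5% ± 1.88 and 22.7% ± 0.858 (SD, n = 3), a log2 ratio change of -2.19 (SE 0.177) and a limma adjusted p of 0.0451. Inclusion TPM went from 25.2 to 8.34 while skipping TPM went from 18.6 to 28.5. An annotated version of the exon starts 15 bases later. Its window overlaps the one above and takes in the first 15 bases of the longer exon, so it is not a separate intronic window. That window holds 46% C and no run of 3 C. The PSI of this version, which leaves out transcripts with the longer exon, was 1.45% ± 1.01 in shCtrl and 1.27% ± 0.468 in shPCBP1.

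MINK1 is a kinase of the STE20 group. Its 111-base coding exon (chr17:4892402-4892512, plus strand, exon 18 of 32) was included at 91.6%, 91.3% and 90.1% in shCtrl against 63.6%, 62.4% and 60.2% in shPCBP1. Skipping TPM averaged 1.8 ± 0.149 and 6.97 ± 0.386 (SD, n = 3), and the limma adjusted p was 0.0451. The difference of -29.0 points became -15.6 points with protein-coding transcripts alone, and the most abundant skipping transcript is annotated to nonsense-mediated decay.

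ATP13A2 is a lysosomal transporter of polyamines. Its 111-base coding exon (chr1:16996386-16996496, minus strand, exon 13 of 29) stood at 97.2%, 98.4% and 98.4% in shCtrl and at 76.5%, 76.4% and 78.8% in shPCBP1, with a limma adjusted p of 0.0451. The most abundant skipping transcript is annotated as a retained intron. All skipping transcripts together had a mean of 45.0 estimated counts, against 3620.4 for inclusion. Computed from estimated counts, the difference was -3.07 points and was not called. The ATP13A2 gene as a whole fell by 0.51 on the log2 scale (SE 0.0544, DESeq2 adjusted p 6.4e-19).

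HAUS5 is a subunit of augmin, which branches microtubules in the spindle. The 64-base exon (chr19:35618402-35618465, plus strand, exon 11 of 18 of a transcript annotated as a retained intron, with no coding sequence) had a PSI of 98.8%, 98.4% and 98.4% in shCtrl against 87.4%, 86.9% and 86.6% in shPCBP1. Replicates of a group lay within 0.433 points SD, and the limma adjusted p was 0.0381. Skipping TPM was 0.293 ± 0.0506 in shCtrl and 2.35 ± 0.0182 in shPCBP1 (SD, n = 3). The most abundant skipping transcript is annotated to nonsense-mediated decay. All skipping transcripts together had a mean of 253.3 estimated counts, against 5265.2 for inclusion.

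The exon that rose lies in BCAP29, which encodes a membrane protein of the endoplasmic reticulum. Its 219-base coding exon (chr7:107580646-107580864, plus strand, exon 2 of 6) was listed at 0 in the 3 shCtrl libraries and had a PSI of 13.0%, 20.2% and 28.6% in shPCBP1 (limma adjusted p 0.0451). Inclusion rested on a mean of 48.6 estimated counts over the 6 libraries, and BCAP29 overlaps a readthrough gene that joins it to its neighbour. No fold is given against a group listed at 0, and with a pseudocount of 1 TPM or from estimated counts the exon was not called.

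Beyond these calls, the exons named are the 14 with the largest lower and the 8 with the largest higher difference among C-rich exons with non-overlapping groups, a total of at least 5 TPM and at least 10 counts for each form, 1 per gene. GOLGA2 and MINK1 are among the 14. The other 12 did not pass limma, with adjusted p-values from 0.0609 to 0.343, and are given by their values. Inclusion TPM was lower in shPCBP1 in 14 of the 14 and skipping TPM higher in 13. Of the 14 host genes 7 fell and 1 rose at a DESeq2 adjusted p under 0.05, and 6 did not pass. Of all genes tested 13.5% fell and 17.7% rose.

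CEP131 is a protein of centriolar satellites. Its 108-base exon (chr17:81192736-81192843) had a PSI of 74.7%, 81.6% and 85.2% in shCtrl against 41.9%, 42.3% and 45.5% in shPCBP1, a difference of -37.2 points (limma adjusted p 0.0907). HDAC10, a deacetylase that acts on polyamines, had an exon of 97 bases (chr22:50250427-50250523) at 79.9%, 82.5% and 73.6% in shCtrl against 41.3%, 54.9% and 37.6% in shPCBP1. In HDAC10 the inclusion form went from 10.1 to 2.77 TPM and skipping from 2.75 to 3.43 TPM, and the gene as a whole fell by 0.79 on the log2 scale (SE 0.0673, DESeq2 adjusted p 7.82e-30). With protein-coding transcripts alone the HDAC10 difference of -34 points was -22.6 points.

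MFSD10, a membrane protein of the major facilitator family, had an exon of 109 bases (chr4:2931555-2931663) at 84.2%, 88.0% and 83.0% in shCtrl against 49.4%, 53.4% and 53.0% in shPCBP1. The limma adjusted p for MFSD10 was 0.0609, the lowest of these 12, and the exon was called with a pseudocount of 1 TPM or when both forms had to reach 10 counts. The most abundant skipping transcript of MFSD10 is annotated as a retained intron. METTL26 had an exon of 175 bases (chr16:634889-635063) at 54.2%, 42.2% and 50.8% in shCtrl against 21.6%, 18.5% and 23.4% in shPCBP1, and here both forms were lower, with skipping TPM at 21.1 and 17.4.

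MATK, a kinase that restrains SRC-family kinases, had a coding exon of 223 bases (chr19:3785064-3785286) at 93.6%, 89.4% and 90.7% in shCtrl against 66.8%, 64.4% and 63.4% in shPCBP1. ERCC1, the partner of the XPF nuclease in nucleotide excision repair, had an in-frame coding exon of 72 bases (chr19:45413963-45414034) at 84.9%, 86.7% and 82.2% in shCtrl against 57.6%, 62.7% and 62.6% in shPCBP1, a difference of -23.6 points that was -9.93 points from estimated counts. The MATK gene as a whole fell by 0.72 on the log2 scale (SE 0.0758, DESeq2 adjusted p 3.12e-19). The ERCC1 gene did not pass at the level of the whole gene (DESeq2 adjusted p 0.654), and neither did CEP131 (0.768). YDJC, the most abundant of these hosts, had an exon of 178 bases (chr22:21629010-21629187), in the 3′ UTR of a transcript annotated to nonsense-mediated decay, at 71.7%, 71.7% and 68.1% in shCtrl against 47.1%, 47.5% and 48.0% in shPCBP1, with inclusion TPM of 235.6 and 142.9. Its difference of -23 points was -43.7 points with protein-coding transcripts alone, and its most abundant skipping transcript is annotated as a retained intron.

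The remaining hosts were less tight. KMT5C, which trimethylates lysine 20 of histone H4, averaged 64.3% ± 7.25 and 39.9% ± 3.28 (SD, n = 3), and LARGE2, a glycosyltransferase of dystroglycan, 89.5% ± 5.57 and 64.5% ± 3.91. The most abundant skipping transcript of KMT5C is annotated to nonsense-mediated decay. The LARGE2 difference of -25 points was -4.11 points from estimated counts. ETV4, an ETS transcription factor, had 55.4%, 49.8% and 30.9% in shCtrl against 25.1%, 22.5% and 18.4% in shPCBP1, so the groups came within reach of each other. PKD1, the gene of polycystin-1, averaged 88.6% ± 6.65 and 65.1% ± 6.99. Its near-identical pseudogene copies make that value uncertain, and the PKD1 difference of -23.6 points was -1.27 points from estimated counts. MAGEA2B, of the MAGE family of cancer-testis antigens, had the largest difference but PSI values of 100%, 30.0% and 100% in shCtrl against 17.8%, 0% and 1.11% in shPCBP1, and its near-identical copy MAGEA2 makes the split of reads uncertain.

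**Figure D5:**
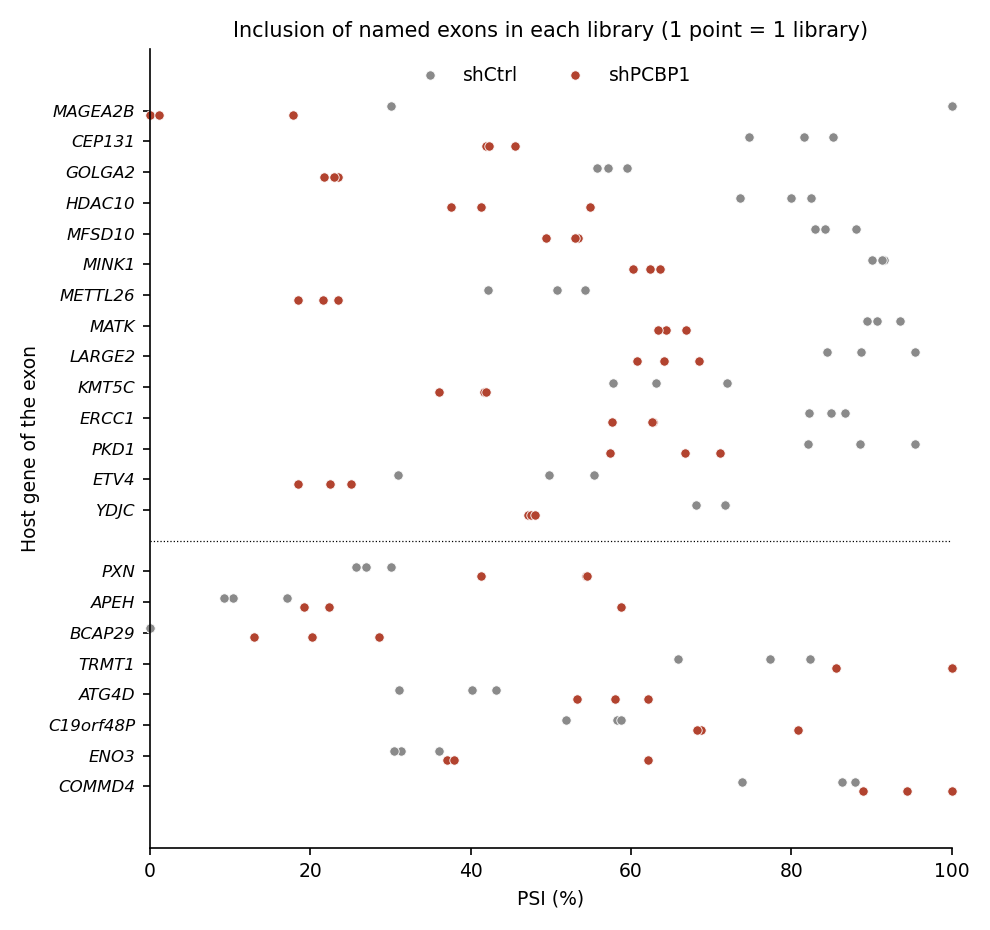
PSI (percent) in each library for the named C-rich exons, with shCtrl in grey and shPCBP1 in red and 1 point per library; the 14 exons above the dotted line were lower in shPCBP1 and the 8 below it higher. Points that coincide overlap, such as 2 MAGEA2B shCtrl libraries at 100%. The tight pairs of groups, such as GOLGA2, MINK1 and YDJC, contrast with the wide spread of MAGEA2B, APEH and ENO3.

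Over the 40 C-rich exons with higher PSI the median difference was 12.72 points, with 12 of them over 20 points, and over the 313 with lower PSI it was -11.67 points. The 8 named exons with higher PSI ran from 11.8 to 22.6 points, and beside BCAP29 their limma adjusted p-values ran from 0.239 to 0.616. PXN, which encodes the focal adhesion protein paxillin, had an exon of 309 bases (chr12:120216273-120216581) at 30.0%, 25.7% and 26.9% in shCtrl against 54.4%, 41.3% and 54.5% in shPCBP1, a difference of 22.6 points that was 5.21 points from estimated counts. ATG4D, a protease of autophagy, had one of 233 bases (chr19:10546839-10547071) at 43.2%, 40.2% and 31% in shCtrl against 53.3%, 58.0% and 62.1% in shPCBP1. APEH, ENO3 and COMMD4 each rested on a single distant library or on values that nearly met, as with ENO3, the muscle enolase, at 31.3%, 30.4% and 36.1% in shCtrl against 62.1%, 37.1% and 37.9% in shPCBP1. In 4 of the 8 the most abundant inclusion transcript is annotated to nonsense-mediated decay, against 2 of the 14 lower exons. This was so for 30% of all 40 higher and 9.9% of all 313 lower C-rich exons. Of all C-rich exons tested 13.8% had such a transcript, and of all exons tested 20.3%.

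Of the genes that the study measured by RT-PCR, GOLGA2, TMEM222 and CARM1 held tested C-rich exons. The study chose some of these with RNA-seq of this knockdown in view, so their direction is not independent evidence. A second 81-base GOLGA2 exon (chr9:128272785-128272865, 42% C upstream) was at 21.0%, 23.1% and 19.8% in shCtrl against 10.4%, 11.8% and 12.5% in shPCBP1 (limma adjusted p 0.179). TMEM222 had an exon of 153 bases (chr1:27330985-27331137, 48% C) at 18.5%, 15% and 19.9% in shCtrl against 8.69%, 9.63% and 11.8% in shPCBP1 (limma adjusted p 0.301). CARM1, an arginine methyltransferase, had one of 69 bases (chr19:10921375-10921443, 42% C) at 39.9%, 36.9% and 37.9% in shCtrl against 28.0%, 30.2% and 34.1% in shPCBP1 (limma adjusted p 0.486). In each of these the groups did not overlap. For the TMEM222 exon inclusion TPM was 3.19 ± 0.797 in shCtrl and 2.61 ± 0.168 in shPCBP1 (SD, n = 3). Skipping TPM was 14.5 ± 1.35 and 23.7 ± 2.78. The TMEM222 gene as a whole rose by 0.48 on the log2 scale (SE 0.0876, DESeq2 adjusted p 7.25e-07). The most abundant inclusion transcript of this exon is annotated to nonsense-mediated decay. Another GOLGA2 exon of 105 bases with a C-rich window was at 95.5% or more in every library, and another TMEM222 exon of 75 bases was listed at 0 in every library.

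A list of splicing factors was followed at the gene level, which holds proteins that bind C-rich or pyrimidine-rich tracts together with other 3′ splice site components, hnRNP proteins and SR proteins. Of 29 listed, 28 received an adjusted p, and 14 rose and 3 fell, where 17.7% of all genes rose and 13.5% fell. The 3 that fell were PCBPs: PCBP1, PCBP2 (log2 fold change -0.24, SE 0.0320) and PCBP4 (-0.55, SE 0.127). PCBP3 was near absent and had no adjusted p. HNRNPK, the other abundant KH protein that prefers C, rose by 0.14 (SE 0.0371, DESeq2 adjusted p 0.00112).

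The rises were small, and none of the 14 passed 0.37 on the log2 scale. U2AF2, the large subunit of U2AF, which binds the pyrimidine tract, was highest at 0.37 (SE 0.0420, DESeq2 adjusted p 1.87e-16). Its partner U2AF1, which reads the AG, did not pass, and its 3 shCtrl libraries had 15734, 13123 and 14116 normalized counts and its shPCBP1 libraries 16065, 13775 and 10397. The pyrimidine tract binding proteins PTBP1 and PTBP3 rose by 0.29 (SE 0.0351) and 0.20 (SE 0.0342), and SF3A1, a component of the U2 snRNP, by 0.26 (SE 0.0505). The part of these factors in the exon values was not tested.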

How the data were processed

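Poly-A RNA of 6 K562 libraries (3 shCtrl, 3 shPCBP1) was read as paired ends. The authors quantified transcripts with Salmon 1.10.2, per the labels on hg38, and deposited for each of 252045 transcripts an estimated count, not normalized, and a TPM value, scaled by the software on effective transcript length. Reads and junction counts were not used here. The annotation behind the index was not given in the sources used here. GENCODE release 44 placed 251142 transcripts, and the other 903 were left out, which took 0.328% to 0.339% of each library. A transcript estimate takes in differences elsewhere in the transcript, such as its start, and short isoforms can draw reads from longer ones, so PSI depends on the annotation.

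For each cassette exon the transcripts that include it, and those that join the same flanks directly, were summed as TPM. Exons whose inclusion or skipping form averaged at least 10 estimated counts were tested two-sided with limma (3.58.1) on log2((inclusion TPM + 0.1)/(skipping TPM + 0.1)), with the trend on mean log2 total TPM, and called at a Benjamini-Hochberg adjusted p under 0.05 with a PSI difference over 5 points. Exons whose groups do not overlap were counted with no test. An exact permutation test with 3 against 3 libraries cannot go below 0.1. Estimated counts were summed per gene, rounded and tested with DESeq2 (1.42.0, Wald, two-sided, summed count of at least 10). Alternatives covered edgeR 4.0.16, other pseudocounts, filters, windows and limits, a replicate block and leaving out each library. Scripts ran in R 4.3.3 and Python 3.11.15, and both tests were tested on simulated data.

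Exons named were those with at least 40% C that limma called, the 14 largest lower and 8 largest higher differences as described above, the 3 of each kind under 20% C, and C-rich exons of the genes the study measured by RT-PCR. Sequences came from the reference genome. The set of exons, the lists and the rules were chosen with earlier results of these data known. One marker gene is not reported here.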

Additional observations from a re-analysis of the deposited data

How the results depend on the processing

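The limma calls depended on the setting. C-rich exons lower and higher were 8 and 1 (C-poor 2 and 2) with 10 counts for both forms, 4 and 0 with no count filter, 7 and 1 (C-poor 0 and 2) from 5 TPM, 3 and 0 (C-poor 2 and 1) from estimated counts, 51 and 0 (C-poor 8 and 7) with a pseudocount of 1 TPM, 6 and 3 (C-poor 3 and 4) with 0.01 TPM, 2 and 0 with windows clear of annotated exons, and 3 and 0 at 50% C or more. They were 20 and 0 (C-poor 3 and 3) with both forms above 0 in each library, a setting chosen after seeing the data. Calls were 0 and 0 in both sets under edgeR, with a replicate block and without any 1 library. Under edgeR 282 of 3022 C-rich and 526 of 13808 C-poor exons had an unadjusted p under 0.05. In limma with a replicate block these were 457 and 1006, and without 1 library 440 to 493 and 1008 to 1138. Of the 5 C-rich calls, 5 were called again with 10 counts for both forms, 4 with 1 TPM and 3 from estimated counts; the cause was not tested. Libraries with the same number had correlated deviations of 0.000171, -0.00671 and -0.0103, so the numbers were not taken to pair the libraries, and the replicate block is given as an alternative only.

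The counts of exons whose groups do not overlap kept the C-rich tilt under the settings run. From 5 TPM, 229 of 1564 C-rich exons were lower (14.6%) and 20 higher, against 202 of 8211 C-poor exons (2.46%) and 216. With protein-coding transcripts only these were 173 of 1364 (12.7%) and 16, against 187 of 5409 (3.46%) and 192. With both forms above 0 they were 268 of 1389 (19.3%) and 18, against 250 of 6369 (3.93%) and 265. Over 10 points they were 182 (6.02%) and 26, against 177 (1.28%) and 186. Clear windows gave 161 of 1735 (9.28%) and 20, against 250 of 10431 (2.4%) and 278. C content over 100 bases gave 134 of 1215 (11%) and 22, against 389 of 14932 (2.61%) and 392. At 50% C or more, 67 of 573 were lower (11.7%) and 10 higher. Without 1 library the C-rich exons ranged from 359 to 411 lower (11.8% to 13.5%) and 73 to 93 higher. The C-poor exons ranged from 498 to 597 lower (3.6% to 4.31%) and 557 to 595 higher. These counts were larger since 2 libraries overlap less often than 3. Of the 313 lower exons, 207 met the rule again from estimated counts and 154 of the 180 testable with protein-coding transcripts. The median difference of variable C-rich exons stayed between -3.69 and -3.12 points.

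Among the factors, 9 to 14 rose and 3 to 4 fell without 1 library, with 9 without shPCBP1 replicate 1. RALY and TIAL1, which did not pass, turned to log2 fold changes of -0.00427 and -0.00441 under edgeR and -0.00429 and -0.00441 with TMM factors, and ranged from -0.0107 to 0.0277 and -0.0258 to 0.0361 without 1 library. RBM39 ranged from -0.01 to 0.0347 and U2AF1 from -0.245 to 0.0584. The 66-base GOLGA2 exon ranged from -0.674 to 0.337 points and the 105-base one from -1.8 to 0.671.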

Other observations

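C-rich exons with lower PSI were spread over 256 genes with a single such exon, 24 genes with 2 and 3 genes with 3. CSAD, which encodes a decarboxylase of taurine synthesis, TYK2, a kinase of the JAK family, and MAMDC4 held 3 each. The 3 CSAD exons are versions of one exon that begin at the same base and share a window of 48% C. The shortest, of 116 bases, was included at 55.3%, 76.6% and 63.2% in shCtrl against 17.6%, 43.9% and 26.4% in shPCBP1. In TYK2 an exon of 119 bases behind 56% C had 87.1%, 84.8% and 87.6% in shCtrl against 78.5%, 78.9% and 77.3% in shPCBP1, a difference of -8.22 points with a spread of 1.52 and 0.814 points (SD, n = 3). Of the MAMDC4 exons, those of 89 and 91 bases had the same PSI in each library, from 58.4% to 65.6% in shCtrl against from 29.7% to 39.5% in shPCBP1. None of these 9 exons passed limma.

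C-rich exons made up 21.6% of the cassette exons tested on chromosome 19, where 55 of 425 (12.9%) were lower and 9 higher. On chromosome 4 they made up 3.92%, and 4 of 48 (8.33%) were lower. Over all chromosomes 10.4% of C-rich exons were lower and 1.32% higher, against 4.12% and 2.31% of all exons tested. Among C-poor exons, chosen by the same rule, USP34, which encodes a deubiquitinase, had an exon of 635 bases at 72.5%, 76.7% and 74.6% in shCtrl against 98.9%, 98.7% and 98.5% in shPCBP1 (limma adjusted p 0.0126), a difference that was 1.5 points from estimated counts. RAB14 was higher, at 42.6% ± 9.68 in shCtrl and 85% ± 26 in shPCBP1, as was PDCD4, at 70.4% ± 8.33 and 93.3% ± 11.6 (SD, n = 3). TRNT1 was lower, at 80.7% ± 7 and 50.4% ± 16, as was RPLP1, at 72.2% ± 16.9 and 44.1% ± 12. From estimated counts the PDCD4 difference of 22.9 points was 6.64 points and the RPLP1 difference of -28.1 points was -2.08 points. The remaining host, ENSG00000274944, differed through 1 shCtrl library at 100% beside 2.06% and 2.64%.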
